A study of Mus musculus with 4 samples.

Results

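Transcripts of 6 basement membrane genes were followed in the gastrocnemius of mice, the large muscle of the calf, in which fast fibres prevail. The 6 genes were Col4a1 and Col4a2, which encode chains of type IV collagen, Lama2, Lamb2 and Lamc1, which encode laminin chains, and Nid1, which encodes nidogen-1. These genes, and the gene lists set beside them, were chosen with earlier results of these data known. All probe sets whose platform annotation gave one of the 6 genes as its only gene symbol were then taken, whatever their values. This gave 7 probe sets for the 6 genes, out of 10833 probe sets with 1 symbol for 8251 genes in all. Each of 4 groups had 1 Affymetrix MG-U74Av2 array, a chip of short oligonucleotide probes, which carried muscle RNA pooled from 10 mice. The groups were intact mice, mice adrenalectomized 1 week earlier, and adrenalectomized mice given 0.1 mg of cortisol into the peritoneum either 3 h or 24 h before the muscle was taken. Removal of the adrenals takes away corticosterone, the main glucocorticoid of mice, and cortisol acts on the same receptor. No vehicle-injected group was described, the interval after surgery was stated for the uninjected adrenalectomized mice alone, and the labels named no strain, age or sex.

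The basement membrane is a thin sheet of matrix that wraps every muscle fibre, capillary and Schwann cell. Laminins, each built of an alpha, a beta and a gamma chain, assemble at the cell surface by binding integrins and dystroglycan. Type IV collagen, in its common form made of the chains of Col4a1 and Col4a2, forms a crosslinked network beside the laminin, and nidogen binds to both. Lama2 encodes the alpha-2 chain, the main laminin alpha chain around adult muscle fibres, and its loss causes a muscular dystrophy in mice and humans. Lamb2 encodes the beta-2 chain, which is concentrated at the neuromuscular junction, and Lamc1 encodes the gamma-1 chain that most laminins share and to which nidogen binds.

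Col4a1 and Col4a2 lie head to head on chromosome 8, and their promoter windows are shown because these genes had similar signal patterns on the arrays. In the GRCm38.p6 assembly Col4a1 spans chr8:11198423-11312889 on the minus strand and Col4a2 spans chr8:11312805-11449287 on the plus strand. The other genes lie apart, Lama2 at chr10:26981285-27617191, Lamb2 at chr9:108479847-108490530, Lamc1 at chr1:153218922-153332786 and Nid1 at chr13:13437602-13512275. RefSeq promoter windows, from 250 bases before to 50 bases after the annotated start, were at hand for 5 of the 6 genes. The Col4a1 window is chr8:11312777-11313076 and the Col4a2 window is chr8:11312555-11312854. The starts used for these windows (chr8:11312826 and chr8:11312805) lie 21 bases apart, that of Col4a1 inside its annotated gene span. The windows share 78 bases (chr8:11312777-11312854), read on opposite strands. Each is printed 5′ to 3′ on its gene's own strand, with the shared bases in capitals.
Col4a1: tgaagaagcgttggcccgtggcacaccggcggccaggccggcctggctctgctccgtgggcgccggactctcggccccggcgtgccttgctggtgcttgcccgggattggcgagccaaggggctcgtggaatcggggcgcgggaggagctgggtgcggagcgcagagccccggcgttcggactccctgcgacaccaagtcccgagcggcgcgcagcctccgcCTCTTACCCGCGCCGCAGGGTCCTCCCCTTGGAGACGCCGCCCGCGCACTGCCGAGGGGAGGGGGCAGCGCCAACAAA
Col4a2: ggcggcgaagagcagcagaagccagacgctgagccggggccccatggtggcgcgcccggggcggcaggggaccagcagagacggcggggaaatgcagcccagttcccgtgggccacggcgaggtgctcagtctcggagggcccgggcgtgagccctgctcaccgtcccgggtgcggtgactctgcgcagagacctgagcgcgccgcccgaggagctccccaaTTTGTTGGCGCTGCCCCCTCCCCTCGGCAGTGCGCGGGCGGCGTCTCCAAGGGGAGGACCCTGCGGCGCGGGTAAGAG

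The capitals of one line are the reverse complement of those of the other. The windows are 74% (Col4a1) and 73.7% (Col4a2) G or C, against a median of 52.7% over 32851 promoter windows of the same length, and hold 37 and 33 CpG dinucleotides against a median of 7. The shared stretch holds 1 GC box (GGGCGG, chr8:11312812-11312817). Outside it, the Col4a2 window holds 2 more GC boxes. A CCAAT box 32 bases before the Col4a2 start has its last base in the shared stretch, and the Col4a1 window holds a CCAAT box 145 bases before its start, on the opposite strand. On either strand 35.7% of all windows hold GGGCGG and 37.4% hold CCAAT. The TATA box, searched as TATAAA and held by 13.6% of all windows, was not found in the windows of the 5 genes. The single-receptor site AGAACA, which forms one arm of the glucocorticoid response element and is held by 19.0% of all windows, was found once, in Lama2. The element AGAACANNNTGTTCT was found in 3 of the 32851 windows and in none of the 5. The motifs did not overlap one another in the Col4a1 and Col4a2 windows. The Lamb2 window (chr9:108479612-108479911) is 44% G or C with 4 CpG dinucleotides and held none of the 5 motifs. The Nid1 window (chr13:13437352-13437651) is 64.7% G or C and held 1 GC box and 1 CCAAT box.

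The signals are MAS 5.0 intensities, in arbitrary units with each array scaled to a trimmed mean of 500, and before ratios were taken any signal under 100 was raised to 100 (the floor). Between 63.0% and 64.4% of probe sets reached the floor on each array. Muscle identity was plain: all 14 skeletal fibre markers reached the floor on every array, and their summed signal lay between 291063 and 302425. Cortisol exposure was visible at 3 h, where 7 of 8 glucocorticoid control genes were at least 2-fold above the adrenalectomized array, against 1.86% of all genes. The eighth, Tsc22d3, was 1.65-fold lower. Fkbp5, a chaperone gene induced by glucocorticoids, read 1349 in intact mice, 796 after adrenalectomy, 3771 at 3 h and 1418 at 24 h. After adrenalectomy the 8 genes were divided, 4 above and 4 below the intact array, with a median log2 ratio of -0.03. With 1 array per group there was no replicate and no test. Error was taken as the SD of a log2 ratio estimated from pairs of probe sets for the same gene, which was 0.24 between the adrenalectomized and intact arrays. Against the adrenalectomized array it was 0.28 at 3 h and 0.32 at 24 h. Over genes whose probe sets both averaged at least 500 it was 0.16, 0.18 and 0.24 in the same comparisons. All of the 6 genes but Nid1 had a mean signal of at least 500, and calls against the error that change with this bright-gene SD are named. The values after ± are the SD over all pairs, and neither SD holds variation between mice or pools. Each array ran in a fluidics module of its own, so the effects of a group cannot be told apart from those of its pool or module. In these pooled samples, fewer cells of a type and less RNA per cell cannot be told apart either.

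The type IV collagen genes were higher after adrenalectomy than in intact muscle, stayed high 3 h after cortisol and were closer to the intact level at 24 h. Col4a1 read 2769 in intact mice, 4298 after adrenalectomy, 4939 at 3 h and 3286 at 24 h. Col4a2 read 2077 in intact mice, 3516 after adrenalectomy, 3211 at 3 h and 2317 at 24 h. For each gene the adrenalectomized and 3 h arrays were the high ones and the intact and 24 h arrays the low ones, and the neighbours within each of those pairs differed by less than the probe set error. Against the bright-gene SD the Col4a1 difference between 3 h and adrenalectomized, 0.20 against 0.18, was larger than the error. The order of the high arrays was opposite in the 2 genes.

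Adrenalectomized against intact, Col4a2 was 1.69-fold higher (log2 ratio 0.76 ± 0.24, the error being the probe set SD) and Col4a1 was 1.55-fold higher (0.63 ± 0.24). Among all 6112 genes compared, 1.96% had a larger log2 ratio in either direction than Col4a2 and 3.68% a larger one than Col4a1. At 3 h the log2 ratios against the adrenalectomized array were 0.20 ± 0.28 for Col4a1 and -0.13 ± 0.28 for Col4a2, and the Col4a1 ratio lay between the bright-gene SD of 0.18 and the SD over all pairs. At 24 h Col4a2 was 1.52-fold lower than on the adrenalectomized array (-0.60 ± 0.32) and Col4a1 had a log2 ratio of -0.39 ± 0.32. Between 3 h and 24 h the log2 ratio was -0.59 ± 0.31 for Col4a1 and -0.47 ± 0.31 for Col4a2. Set against intact mice, the 24 h array differed by 0.25 ± 0.32 for Col4a1 and 0.16 ± 0.32 for Col4a2, less than the error. The higher ratio after adrenalectomy and the lower one at 24 h share the adrenalectomized array, so a deviation of that array alone would enter them with opposite signs. The 3 h array is a separate one, and against intact mice it read 1.78-fold higher for Col4a1 (0.83 ± 0.27) and 1.55-fold higher for Col4a2 (0.63 ± 0.27). These ratios share only the intact array with the adrenalectomized against intact ratios.

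**Figure D1:**
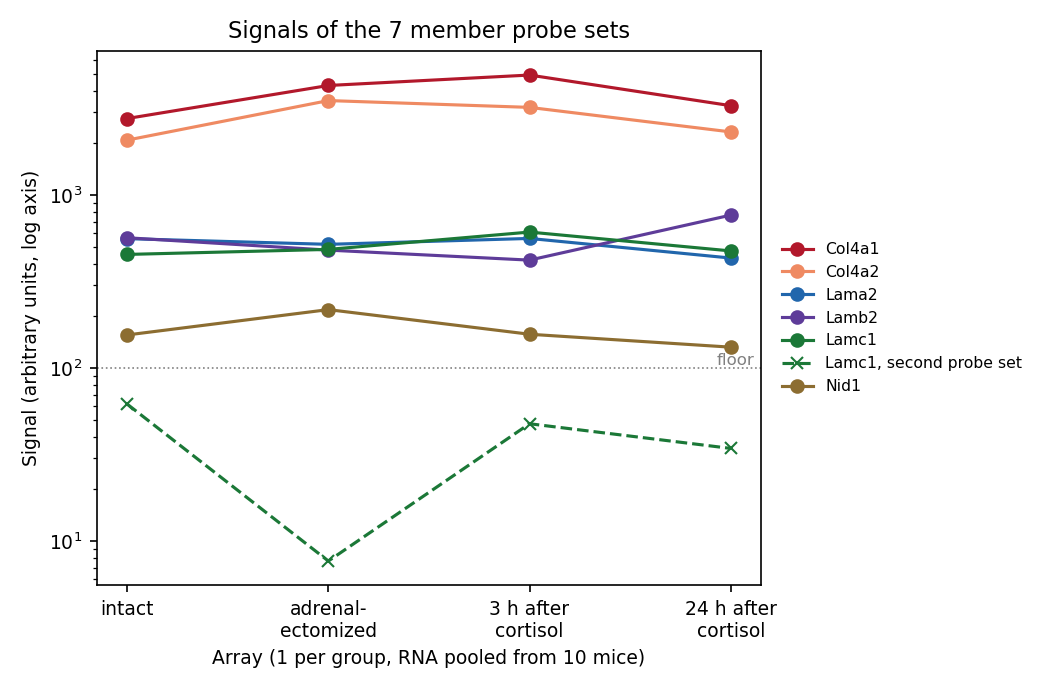
Signal of each of the 7 probe sets (y axis, arbitrary units, log axis) on the 4 arrays (x axis, 1 point per array, no error bars because there were no replicates). Col4a1 and Col4a2 are high on the adrenalectomized and 3 h arrays, Lamb2 is highest at 24 h with a signal of 765, and the second Lamc1 probe set (dashed) lies below the floor of 100 (dotted line) on every array.

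The 3 laminin chain genes did not share a pattern. Lamb2, the beta-2 chain, read 566 in intact mice, 480.3 after adrenalectomy, 420.4 at 3 h and 765 at 24 h. It was thus lowest at 3 h, where Col4a1 was highest, and highest at 24 h. At 24 h Lamb2 was 1.59-fold above the adrenalectomized array (log2 ratio 0.67 ± 0.32) and 1.82-fold above the 3 h array (0.86 ± 0.31), while its ratio to intact mice was 0.43 ± 0.32. Of all 6229 genes compared between 24 h and 3 h, 4.88% had a larger log2 ratio in either direction. The log2 ratios of Lamb2 were -0.24 ± 0.24 for adrenalectomized against intact and -0.19 ± 0.28 for 3 h against adrenalectomized, each within the SD over all pairs but above the bright-gene SDs of 0.16 and 0.18. The gene had 1 probe set, so no second reading was at hand. Lamb2 is also an old synonym of Lamc1 in the gene table, and the probe set was assigned to Lamb2 by its gene ID (16779).

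Lama2, the alpha-2 chain, read 559 in intact mice, 519 after adrenalectomy, 561 at 3 h and 432 at 24 h. Its highest signal was 1.30-fold above its lowest, and it was the flattest of the 6 genes. The 24 h array was the low one, with log2 ratios of -0.37 ± 0.32 against intact mice and -0.38 ± 0.31 against 3 h. Neighbours in the order of its levels differed by less than the SD over all pairs. The difference between adrenalectomized and 24 h, 0.26, was above the bright-gene SD of 0.24.

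Lamc1, the gamma-1 chain, read 454 in intact mice, 485 after adrenalectomy, 611 at 3 h and 475 at 24 h on its brighter probe set. The 3 h array was the high one, with log2 ratios of 0.43 ± 0.27 against intact mice and 0.33 ± 0.28 against the adrenalectomized array. The other 3 arrays differed by less than the error. The suffix of this probe set marks probes shared with other transcripts, so its signal may include them. The second Lamc1 probe set read 61.8, 7.66, 47.6 and 34.3, listed as for the brighter one. All of these were below the floor, so it gave no ratio that could be set beside that of the brighter set.

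Nid1, whose product links laminin to type IV collagen, read 155 in intact mice, 218 after adrenalectomy, 157 at 3 h and 132 at 24 h. The adrenalectomized array stood above the other 3, which differed from their neighbours in order by less than the error. Nid1 was 1.40-fold higher after adrenalectomy than in intact mice (log2 ratio 0.49 ± 0.24) and 1.65-fold lower at 24 h than after adrenalectomy (-0.72 ± 0.32). At 3 h its log2 ratio against the adrenalectomized array was -0.47 ± 0.28. Unlike the type IV collagen pair, Nid1 at 3 h read close to intact mice, with a log2 ratio of 0.01 ± 0.27 that became negative under median scaling, quantile normalization and a scaling to ribosomal protein genes. These signals lie near the floor, and with a floor of 200 the ratios involving the adrenalectomized array shrank to 0.12 in size. Nid2, which encodes the related nidogen-2, read 120.5 in intact mice, 164 after adrenalectomy, 162 at 3 h and 122 at 24 h, so that it was high on the 3 h array as well. Its probe set also carries a suffix that marks shared probes, and Nid2 was named after its values were seen.

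**Figure D2:**
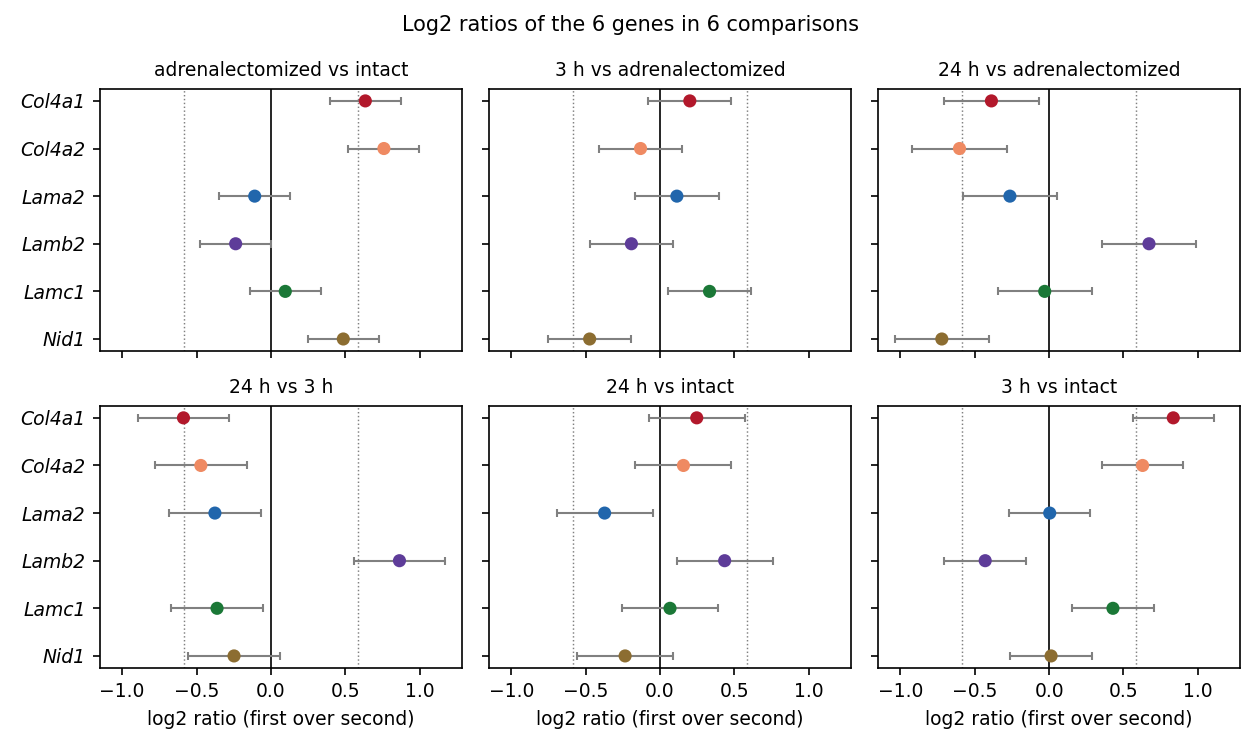
Log2 ratio of each gene (x axis, first array over second) in the 6 comparisons, with bars of 1 SD of the probe set error on either side and dotted lines at 1.5-fold. Col4a1 and Col4a2 lie beyond 1.5-fold in adrenalectomized and in 3 h against intact, and Lamb2 lies on the opposite side from the other 5 genes in 24 h against 3 h.

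Counted as a list, 2 of the 6 genes were at least 1.5-fold higher after adrenalectomy than in intact mice and none lower, where 2.67% of all genes were higher by that much and 2.24% lower. The count was 1 under median scaling, where Col4a1 had a log2 ratio of 0.57. Among the 2852 genes with a mean signal of at least 500, to which all of the 6 genes but Nid1 belong, 0.666% were at least 1.5-fold higher. The median log2 ratio of the 6 genes was 0.29, against 0.01 over all genes. At 3 h against adrenalectomized none passed 1.5-fold, where 5.07% of all genes were higher and 4.75% lower, and the median was -0.01 against -0.02 over all genes. Under median scaling it was 0.02, and when arrays were scaled to ribosomal protein genes Nid1 alone passed 1.5-fold downward.

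At 24 h against adrenalectomized, Nid1 and Col4a2 were at least 1.5-fold lower and Lamb2 at least 1.5-fold higher, where 4.51% of all genes were lower and 5.49% higher. The log2 ratio was negative for 5 of the 6 genes, where 51.4% of all genes had a positive one. The median was -0.33 against 0.01 over all genes. With a floor of 200 Nid1 no longer passed and 2 genes did. At 24 h against 3 h the log2 ratio was again negative for all but Lamb2, where 55.3% of all genes had a positive one. Col4a1 passed 1.5-fold downward, where 5.88% of all genes did, and Lamb2 passed it upward, where 5.76% did. The median was -0.37 against 0.03. Col4a1 no longer passed under quantile normalization or the ribosomal scaling. At 3 h against intact Col4a1 and Col4a2 were at least 1.5-fold higher, where 5.7% of all genes were higher and 4.25% lower, and the median was 0.22 against -0.01, with a range over the alternatives from 0.01 to 0.43. Under the ribosomal scaling Col4a2 had a log2 ratio of 0.53 and no longer passed. At 24 h against intact none of the 6 passed 1.5-fold, where 5.95% of all genes were higher by that much and 4.04% lower. The largest ratio of any of the 6 genes between any pair of arrays was the 1.82-fold of Lamb2. Among genes with a mean signal of at least 500, 2.98% were at least 1.5-fold higher and 2% lower at 3 h against adrenalectomized. The shares were 1.72% and 2.45% at 24 h against adrenalectomized, and 1.75% and 3.68% at 24 h against 3 h. Against intact mice they were 3.51% and 1.86% at 3 h, and 1.75% and 2.21% at 24 h. All 6 comparisons share arrays with one another.

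Likeness between genes was measured as the Euclidean distance between their log2 signals over the 4 arrays, after each gene's own mean was taken off. By this measure Col4a2 was 0.24 from Col4a1 and stood 32nd of the 5451 other genes at or above the floor on all 4 arrays, whose median distance from Col4a1 was 0.71. From Col4a1, Lamc1 was at 0.41 (place 204), Nid1 at 0.63 (place 1585), Lama2 at 0.65 (place 1801) and Lamb2 at 1.20 (place 5270). From Col4a2, Nid1 was nearer, at 0.44 (place 305), and Lamb2 was again far, at 1.18 (place 5275). Lamb2 lay between 0.90 and 1.20 from each of the other 5 genes. The distances rest on 4 arrays and describe these arrays only.

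The 6 genes nearest to the mean pattern of Col4a1 and Col4a2 were Apcdd1, Limk1, Notch4, Gpc3, Cyth2 and Nos3, at distances from 0.04 to 0.14, where the median over 5446 genes was 0.69. Apcdd1, which encodes an inhibitor of Wnt signalling, read 124 in intact mice, 201 after adrenalectomy, 213 at 3 h and 144 at 24 h. Limk1, a kinase gene of actin regulation, read 1301, 2040, 2052 and 1492 in the same order, on a probe set whose suffix marks relaxed design rules. The Notch receptor gene Notch4 read 166, 254, 281 and 196, and the glypican gene Gpc3 read 196, 331, 304 and 212. Nos3, which encodes the nitric oxide synthase of endothelium, read 147, 239, 233 and 151. Each of these was high on the adrenalectomized and 3 h arrays and low on the other 2, as its choice required. Apcdd1, Notch4, Gpc3 and Nos3 read between 124 and 331, nearer the floor than the type IV collagen pair. How far their match depends on the floor was not tested. The mean pattern of Lama2, Lamb2 and Lamc1 was nearly flat, from -0.07 to 0.05 around its mean, because the laminin genes offset one another. Lamb2 ran against the other laminin genes at 3 h and 24 h, and Lamc1 against the others in intact mice. The 6 genes nearest to it were Rtkn, Ascc1, Snx5, Nme2, Pdap1 and Cox7b, at distances of at most 0.02.

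**Figure D3:**
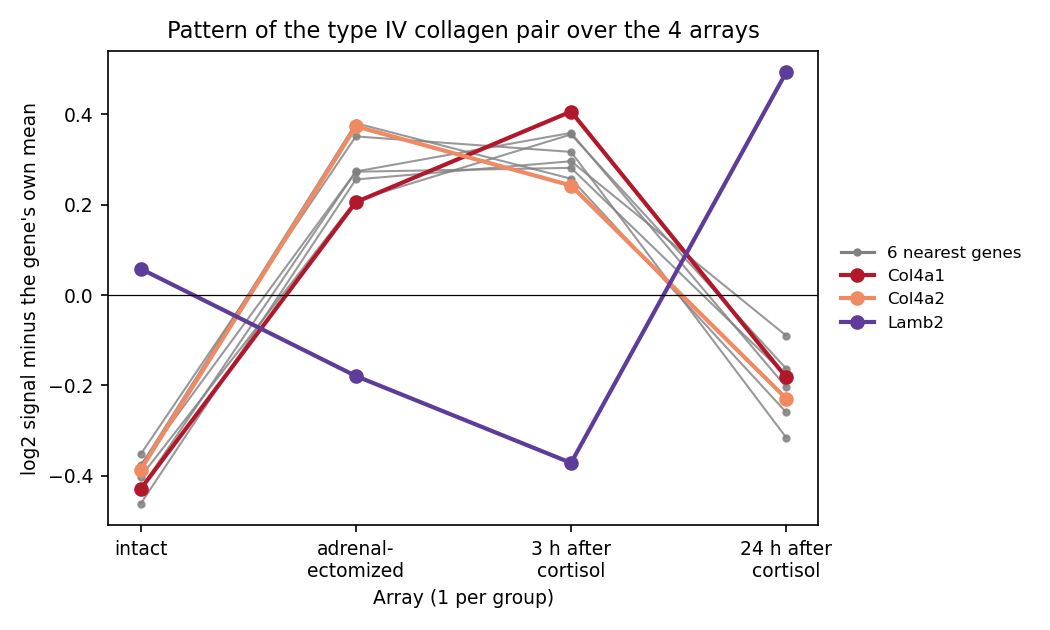
Log2 signal minus the gene's own mean over the 4 arrays (y axis) on each array (x axis) for Col4a1, Col4a2, Lamb2 and the 6 genes nearest to the type IV collagen pair (grey). The pair and its nearest genes are above 0 on the adrenalectomized and 3 h arrays and below 0 on the intact and 24 h arrays, while Lamb2 is above 0 on the intact and 24 h arrays.

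Of 25 other basement membrane genes listed, 20 had a probe set, and Lama1, Lamb3, Col4a3 and Col4a4 stayed below the floor on all arrays. After adrenalectomy 1 of 15 measured genes was at least 1.5-fold higher and none lower, where 2.67% of all genes were higher and 2.24% lower, and the median log2 ratio was 0.08. That gene was Smoc1, which encodes a calcium-binding matrix protein, and it was at least 1.53-fold higher, with 153 against an intact signal below the floor. Sparc, a collagen-binding matrix protein gene named here after its values were seen, read 3965 in intact mice, 5915 after adrenalectomy, 5215 at 3 h and 4141 at 24 h. Its log2 ratio after adrenalectomy was 0.58 ± 0.24. Hspg2, which encodes the heparan sulfate proteoglycan perlecan and was likewise named after its values were seen, read 1661, 2195, 2233 and 1979 in the same order.

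At 3 h against adrenalectomized, 16 of the other basement membrane genes were measured, with a median of -0.22. Lama3 was at least 1.62-fold higher, and Lama4 and Smoc1 were 1.61-fold and at least 1.53-fold lower. Over all genes 5.07% were at least 1.5-fold higher in that comparison and 4.75% lower. Lama4, the laminin alpha-4 chain gene of blood vessels, read 697 in intact mice, 811 after adrenalectomy, 505 at 3 h and 645 at 24 h. Its second probe set was below the floor on all arrays. The Lama3 chain is known from epithelia such as epidermis, and the probe set, whose suffix marks shared probes, reached the floor only on the 3 h array, at 162. At 24 h against adrenalectomized, 13 of 15 log2 ratios were negative and the median was -0.41. Over all genes 51.4% of the ratios were positive. Col15a1, which encodes a collagen at the outer face of the basement membrane, was 1.70-fold lower, Col18a1 1.61-fold and Smoc1 at least 1.53-fold. Of all genes 4.51% were at least 1.5-fold lower. Col15a1 read 1063 in intact mice, 1548 after adrenalectomy, 1233 at 3 h and 908 at 24 h. A second Col18a1 probe set had a log2 ratio of at least 0.77, opposite to the -0.69 of the brighter set. This second set read 98.3 after adrenalectomy, below the floor, and 171 at 24 h.

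Lamb1, the beta chain gene that can take the place of Lamb2 in laminin, read 446 in intact mice, 535 after adrenalectomy, 509.8 at 3 h and 374 at 24 h. It was thus low at 24 h, where Lamb2 was high, with a log2 ratio of -0.52 ± 0.32 against the adrenalectomized array, where Lamb2 had 0.67 ± 0.32. Its second probe set had -0.77 in the same comparison. Lama5, the alpha-5 chain gene, read 479.7 in intact mice, 483 after adrenalectomy, 386 at 3 h and 559 at 24 h, and so had its low and high arrays where Lamb2 had them. Agrn, whose product agrin organizes the neuromuscular junction, read 410.0, 406, 408 and 476 in the same order. Second probe sets did not follow: at 24 h against adrenalectomized they had log2 ratios of -0.04 for Lama5 and -0.56 for Agrn, where the brightest had 0.21 and 0.23. The second Lama5 set read 103 after adrenalectomy and 68.7 at 24 h, so the floor set the size of its ratio. Lamb1, Lama5 and Agrn were named after their values were seen.

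Among receptors for laminin and collagen, none of 13 measured passed 1.5-fold after adrenalectomy against intact or at 3 h against adrenalectomized. Over all genes 4.91% and 9.82% passed it in either direction in these comparisons. The receptor medians of 0.02 and, at 3 h, within 0.01 of 0 changed sign between scalings. Dag1, which encodes dystroglycan, read between 3580 and 3898 on the 4 arrays, and the integrin gene Itgb1 between 7179 and 8111, both named after their values were seen. At 24 h against adrenalectomized 1 of the 13 passed 1.5-fold, where 4.51% of all genes were lower. It was Itga6, the alpha chain gene of a laminin-binding integrin, which read 217 in intact mice, 293 after adrenalectomy, 316 at 3 h and 172 at 24 h and was 1.71-fold lower at 24 h than after adrenalectomy. At 3 h the largest receptor difference from the adrenalectomized array was that of the collagen receptor gene Ddr2, with a log2 ratio of -0.53. Between other arrays, Itgb4 was 1.55-fold lower at 3 h than in intact mice. Between 3 h and 24 h Itga6 was 1.84-fold lower and Itga3 1.63-fold higher on its brighter probe set (146 and 239). The second Itga3 set went the other way, with 182 at 3 h and 57.1, below the floor, at 24 h.

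For the 10 genes of collagen folding and crosslinking on the array the median log2 ratio was 0.19 after adrenalectomy, -0.25 at 3 h and -0.30 at 24 h against adrenalectomized. After adrenalectomy the crosslinking enzyme gene Lox was 1.53-fold higher, the only one past 1.5-fold, but its second probe set had a log2 ratio of -0.30. Of all genes 2.67% were higher by 1.5-fold and 2.24% lower. At 24 h Lox was 1.83-fold lower, the hydroxylase gene Plod3 1.63-fold and P4hb, a subunit gene of prolyl hydroxylase, 1.53-fold. Of all genes 4.51% were at least 1.5-fold lower in that comparison. The second Lox probe set had -0.04 there, but its signals lay near the floor, between 102 and 129 on the 4 arrays. The other probe sets of Plod3 had log2 ratios of 0.55 and 0.32, opposite to the brightest. Serpinh1, which encodes a chaperone of procollagen and was named after its values were seen, read 1627 in intact mice, 2167 after adrenalectomy, 1809 at 3 h and 1671 at 24 h. Among matrix proteases and their inhibitors none of 10 measured passed 1.5-fold after adrenalectomy or at 24 h against adrenalectomized. Over all genes 4.91% and 10% passed it in either direction. At 3 h against adrenalectomized 1 of 9 measured passed 1.5-fold, where 4.75% of all genes were lower by that much and 5.07% higher. It was the inhibitor gene Timp1, 2.13-fold lower at 3 h than after adrenalectomy (266 against 565). The gelatinase genes Mmp2 and Mmp9, whose products cut type IV collagen, stayed below the floor on all arrays.

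Fibrillar collagen and interstitial matrix genes, the matrix outside the basement membrane, had a median of 0.14 after adrenalectomy (18 genes, log2 ratios). Against the adrenalectomized array the median over 19 genes was -0.21 at 3 h and -0.34 at 24 h. None passed 1.5-fold upward after adrenalectomy, where 2.67% of all genes did. The tenascin gene Tnxb was 1.68-fold lower, where 2.24% of all genes passed 1.5-fold downward. Its second probe set had a log2 ratio of -0.22 against -0.75 on the brighter one, and both carry a suffix that marks shared probes. At 3 h the fibronectin gene Fn1 (1.65-fold), Fmod (1.64-fold) and Col6a2 (1.51-fold) were lower, where 4.75% of all genes were at least 1.5-fold lower. At 24 h 6 of 19 were at least 1.5-fold lower, where 4.51% of all genes were, among them Col1a2 (1.85-fold), Col5a2 (1.76-fold), Col1a1 (1.76-fold) and Col3a1 (1.68-fold). A second Col1a2 probe set had a log2 ratio of 0.27, opposite to the brighter one. A second Col1a1 probe set had -0.17, where the brighter one had -0.82. Against intact mice at 24 h the fibrillar list had a median of -0.30 where the 6 basement membrane genes had 0.11. Of the 6, 4 were above 0 and 2 below. The other basement membrane genes had a median of -0.14 there, with 9 of 14 measured below 0, on the side of the fibrillar list. Whether the lists differ could not be tested with 1 array per group.

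**Figure D4:**
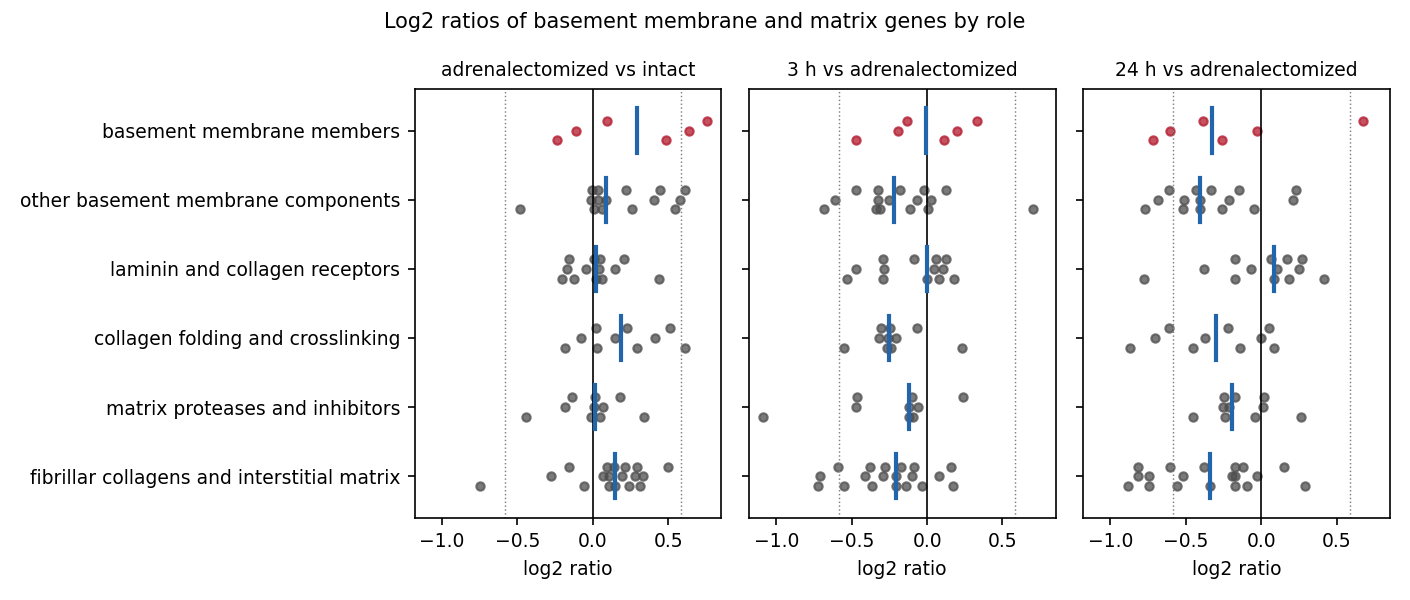
Log2 ratios (x axis) of the 6 genes (red) and of 5 other lists of matrix genes (grey, 1 point per gene) in the 3 main comparisons, with blue bars at each list's median and dotted lines at 1.5-fold. The 6 genes have medians of 0.29, -0.01 and -0.33, and the 2 points past 1.5-fold upward after adrenalectomy in that row are Col4a1 and Col4a2.

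Basement membranes are made by several cell types, so markers of those cells are given beside these values. All 12 endothelial markers on the array reached the floor on every array, and their summed signal was 7442 in intact mice, 8488 after adrenalectomy, 9287 at 3 h and 8844 at 24 h. Their median log2 ratio was 0.25 after adrenalectomy, with the junction gene Cldn5 1.56-fold higher, where 2.67% of all genes passed 1.5-fold upward. At 24 h against adrenalectomized the median was -0.11, with none of the 12 past 1.5-fold, where 10% of all genes were. At 3 h against adrenalectomized 3 were at least 1.5-fold higher, such as Ramp2, and 3 lower, such as the growth factor receptor gene Kdr, where 5.07% of all genes were higher and 4.75% lower. The median there was -0.15, with 7 of 12 below 0, so the summed signal and the median moved in opposite directions. Fibroblast markers, 9 of 10 of them at or above the floor throughout, summed to 20571 in intact mice, 20585 after adrenalectomy, 16139 at 3 h and 16102 at 24 h. Their median log2 ratio was 0.13 after adrenalectomy, and against adrenalectomized it was -0.32 at 3 h and -0.33 at 24 h. After adrenalectomy 5 of 9 measured were above 0 and 4 below. The stromal and vascular gene Cd34 was 1.68-fold higher there, where 2.67% of all genes passed 1.5-fold upward. At 3 h against adrenalectomized S100a4 was 1.65-fold lower and Vim at least 1.66-fold higher, where 4.75% of all genes were lower and 5.07% higher. At 24 h against adrenalectomized S100a4 was 1.76-fold and Mfap5 1.51-fold lower, where 4.51% of all genes passed 1.5-fold downward. Gsn alone gave 13944 of the fibroblast sum of 20571 in intact mice. Smooth muscle and pericyte markers summed to between 8516 and 9280 on the 4 arrays (Cnn1 below the floor on all). That list holds Des (2070 to 2353), which is also among the skeletal fibre markers. Schwann cell markers summed to between 3361 and 3563, with 5 of 8 at or above the floor throughout. At 3 h against adrenalectomized Gfap was 2.15-fold and Egr2 at least 1.78-fold higher, while the Schwann cell median was -0.05. Of all genes 5.07% were at least 1.5-fold higher there. Macrophage markers summed to 6962, 7925, 6427 and 7540 (Fcer1g below the floor on all). The part of these cells in the basement membrane values was not tested.

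Markers that set the arrays apart were those of slow fibres, skin and liver. Slow fibre markers summed to 75145 in intact mice, 82544 after adrenalectomy, 30166 at 3 h and 28620.1 at 24 h, so they separated the injected from the uninjected groups, a split that none of the 6 genes showed. Keratinocyte and hair markers summed to 1390.3, 1320, 11141 and 2942, with Krt5, Krt14 and Krt15 below the floor on all arrays. They were highest at 3 h, as were Lama3, Col4a1, Lamc1 and, narrowly, Lama2. The Col4a1 lead over the adrenalectomized array lay between the bright-gene SD and the SD over all pairs. Col4a2 and Nid1 were highest after adrenalectomy, and Lamb2 was lowest at 3 h. Hepatocyte markers summed to 4309, 2999, 1372 and 982, with Fgb below the floor on all arrays. Their part in the signals of the 6 genes was not tested.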

How the data were processed

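Probe set signals on 4 arrays were used. Per the labels, the authors extracted total RNA with Trizol, prepared standard Affymetrix targets and computed the deposited linear intensity values from the scans with MAS 5.0, with no replicate. In the deposited values the 2% trimmed mean was 500 on 3 arrays and 500.6 at 3 h. Here 66 control probe sets were left out (20 had no value at 3 h), the 12422 others were rescaled to a trimmed mean of 500, and log2 ratios were taken with a floor of 100. Of these, 10833 had 1 gene symbol, 396 several and 1193 none. A gene was represented by its brightest probe set. Per the file headers, other settings in the deposited instrument files gave 1 chip lot, 1 fluidics station and modules 1, 2, 3 and 4.

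With 1 array per group no test was run, and a gene was counted when it passed 1.5-fold. The number of arrays limits the precision. The error SD came from 914 to 928 genes with a second probe set at the floor or above, as the SD of the difference of their log2 ratios divided by the square root of 2. The 6 genes, the lists and the rules were chosen with earlier results of these data known. The genes named were drawn from the 6 members, checks of tissue and hormone, list members past 1.5-fold and the 6 genes nearest to each pattern. From each list at most 4 per comparison, or the largest, were eligible. Not every eligible cell type marker is named, so a marker left unnamed may have passed 1.5-fold. Further genes are marked in the text as named after their values were seen. The alternatives were 4 other scalings (values as deposited among them), floors of 200 and 20, all probe sets averaged, and probe sets without a suffix. Sequences and motif counts came from RefSeq (GRCm38.p6). Calculations used Python 3.11.15, NumPy 2.4.6 and pandas 2.3.3.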

Additional observations from a re-analysis of the deposited data

How the results depend on the processing

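Of the 36 log2 ratios of the 6 genes, 32 kept their direction under each of the 8 alternatives that gave them a value. Not every alternative could move every ratio. Col4a1, Col4a2, Lama2 and Lamb2 each had 1 probe set, without a suffix and above 200 on every array. For them the floors and probe set choices could change nothing, and the deposited values were already scaled nearly alike. Only the ribosomal, median and quantile scalings could shift these genes. Without suffixed probe sets Lamc1 had no ratio, and with a floor of 200 Nid1 had none between intact, 3 h and 24 h. The exceptions were near 0: Lama2 at 3 h against adrenalectomized and against intact, Nid1 at 3 h against intact and Lamc1 at 24 h against intact. Scaling to ribosomal protein probe sets shifted the median of all genes to -0.17 at 3 h against adrenalectomized, to -0.11 at 3 h against intact and to 0.11 at 24 h against 3 h. Under it 1 gene (Nid1) passed 1.5-fold at 3 h against adrenalectomized, where none did otherwise, and 1 in place of 2 passed at 24 h against 3 h and at 3 h against intact. The count was 1 in place of 2 under median scaling after adrenalectomy and under quantile normalization at 24 h against 3 h. The cause was not tested. After adrenalectomy the log2 ratio of Col4a1 lay between 0.57 and 0.69 over all settings and that of Col4a2 between 0.70 and 0.82. The median of the 6 genes ranged from 0.11 to 0.49 after adrenalectomy, from -0.17 to 0.02 at 3 h and from -0.41 to -0.19 at 24 h against adrenalectomized, from -0.41 to -0.29 at 24 h against 3 h, from 0.04 to 0.16 at 24 h against intact and from 0.01 to 0.43 at 3 h against intact. With a floor of 200 the count at 24 h against adrenalectomized was 2 in place of 3, and the log2 ratios of Nid1 were 0.12, -0.12 and -0.12 in the 3 main comparisons. Every result rests on single arrays, and Nid1 lies near the floor. No paired analysis was possible because each group has 1 array.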
